A study of Rattus norvegicus with 24 samples.

Results

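Ankrd1, Ankrd2, Ankrd23, Csrp3, Xirp1 and Flnc encode muscle proteins that answer to stretch and load. They were followed here as the sums of their transcripts in single tibialis anterior muscles of trained rats. These 6 genes, of 15273 gene symbols in the transcript table, were chosen by name and with their differences between trained and contralateral muscles already known. Those differences are therefore given as a description, without a test. The animals were adult male Wistar rats, in the sixth month of life by the study's methods. Each carried an implanted pulse generator that stimulated the left common peroneal nerve once a day, with the current spilling over to the tibial nerve so that the opposing calf muscles resisted the contraction. The trained group at each of 2, 10, 20 and 30 days of training held 3 left muscles, taken an hour after the last session. The contralateral group held the unstimulated right muscle of the same 12 rats, so every control muscle came from an operated and trained animal, and the 12 right muscles served as 1 control group.

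Ankrd1 (CARP), Ankrd2 (Arpp) and Ankrd23 (DARP) form the muscle ankyrin repeat protein family. These proteins bind the elastic I-band part of titin, the spring of the sarcomere, and can also be found in the nucleus, where they act with transcription factors. Csrp3 (muscle LIM protein) is a LIM-domain protein of the Z-disc, the structure that anchors the thin filaments, and also moves to the nucleus. Xirp1 (Xin) is an actin-binding repeat protein found at the myotendinous junction and at sites of fibre damage. Flnc (filamin C) is the muscle filamin, which crosslinks actin at the Z-disc and the membrane and binds Xin. Ankrd1 and Csrp3 are well known from the loaded heart, and Ankrd2 from stretched skeletal muscle.

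In Rnor_6.0, the genome build of the files, Ankrd1 lay at chr1:254726969-254735549 on the minus strand and Ankrd2 on the same chromosome at chr1:261281543-261291395 on the plus strand. Ankrd23 lay at chr9:43112141-43116522 on the minus strand. Csrp3 had 2 transcripts on the minus strand, Csrp3-201 at chr1:104147206-104157856 and Csrp3-202 at chr1:104149705-104166368. Xirp1 lay at chr8:128702133-128711222 on the minus strand. Flnc lay on the plus strand, with Flnc-201 at chr4:56711049-56738792 and a second transcript, Flnc-202, whose mean value was under 1.

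The bases just upstream of the annotated start are shown for the members that the RefSeq promoter table (build GRCr8) holds, 4 of 6, because members that move together might share letters there. The windows run 5′ to 3′ on the gene's strand and stop at the base before the gene, with matches in capitals.
Ankrd2, chr1:250796169-250796418, plus strand: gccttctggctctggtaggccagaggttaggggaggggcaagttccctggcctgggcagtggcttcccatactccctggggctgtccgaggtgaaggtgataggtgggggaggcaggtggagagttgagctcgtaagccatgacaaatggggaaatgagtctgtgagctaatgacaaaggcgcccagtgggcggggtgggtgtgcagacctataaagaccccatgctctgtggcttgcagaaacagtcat
Ankrd23, chr9:46274579-46274760, minus strand: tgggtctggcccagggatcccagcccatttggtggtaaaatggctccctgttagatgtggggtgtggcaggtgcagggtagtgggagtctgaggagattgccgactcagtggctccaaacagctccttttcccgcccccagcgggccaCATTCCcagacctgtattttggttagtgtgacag
Xirp1, chr8:128635012-128635261, minus strand: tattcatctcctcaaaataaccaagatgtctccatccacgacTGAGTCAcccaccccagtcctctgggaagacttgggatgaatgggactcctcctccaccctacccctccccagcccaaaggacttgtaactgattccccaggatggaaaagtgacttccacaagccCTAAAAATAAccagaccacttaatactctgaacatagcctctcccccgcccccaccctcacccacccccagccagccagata
Flnc, chr4:58999297-58999444, plus strand: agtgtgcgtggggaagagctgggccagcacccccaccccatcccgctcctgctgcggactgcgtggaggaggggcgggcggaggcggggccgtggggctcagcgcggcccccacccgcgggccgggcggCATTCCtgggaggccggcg
The capitals mark M-CAT (CATTCC, the letters that TEAD factors read), AP-1 (TGANTCA, read by Fos and Jun) and MEF2, found on either strand. M-CAT stood in the windows of Ankrd23, 34 to 29 bases before the start, and of Flnc, 19 to 14 bases before it. Windows of those lengths held M-CAT in 8.91% and 7.22% of all 33469 promoters in the table. For this and the shares below, each window was counted from the first base of its promoter entry. It thus matched in length but not always in distance to the gene's start. The Xirp1 window, from the first of 3 entries for that gene, held AP-1 from 208 to 202 bases and MEF2 from 82 to 73 bases before the start. AP-1 was in 6.34% and MEF2 in 2.96% of all promoters over that length. The Ankrd2 window held no M-CAT, AP-1 or MEF2 match, and none of the 4 windows held a CArG box, the element read by SRF. The E-box (CANNTG), whose matches are left in lower case, occurred 2 times each in Ankrd2 and Ankrd23 and is common, at 65.5% and 54.7% of promoters over those lengths. No letters were shared by all 4 windows among the motifs searched.

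Values are the authors' transcript values, which add up to about the same total in every muscle. They were taken as scaled for transcript length, which could not be checked here, and levels of different genes or transcripts are compared on that basis. They were summed per gene and then rescaled per muscle by median of ratios, with factors of 0.778 to 1.14. They keep no counts, so the depth behind a value cannot be read from them and the precision it gives is unknown. Differences were taken with limma on log2(value + 1) over the 11196 genes that reached 1 in 3 or more muscles, which include all 6 members, and such differences understate the change of low genes. All 9 skeletal muscle fibre markers analysed, of 10 listed (Ttn was not analysed), were expressed. They summed to between 87772 and 101618 in the contralateral muscles and between 60569 and 103677 in the trained ones. At 30 days the trained sums, 74667 to 82461, were all below the lowest control. Of the 9 markers, 4 were called lower at 30 days, against 9.46% of all genes, and 0 higher. The list holds fast fibre genes, among them Actn3, whose mean was 3569 in the controls and 850 at 30 days. Acta1, also in the list, had means of 25377 and 24568. The sum is therefore not a measure of fibre content alone. The 5 heart muscle markers in the table summed to at most 8.01 in any muscle. In whole muscle, a change in the cells of a type and a change in the RNA of each cell cannot be told apart. The 10 macrophage and leukocyte markers summed to between 16.4 and 36.6 in the contralateral muscles and between 49.6 and 158 in the trained ones. The 6 fibroblast markers summed to between 89.7 and 276 and to between 321 and 1021. The part of these cells in the members' values was not tested. Among trained muscles, replicate 1 at 2 days was the lowest of its group for 76.8% of the 1728 genes called higher at 2 days, and replicate 3 at 10 days for 50.9% of the 1746 called higher at 10 days.

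Ankrd1 showed the widest span of the members. In the 12 contralateral muscles its value ran from 2.45 to 30.3, with a median of 8.73. After 2 days of training it was 379, 2670 and 1641 in replicates 1, 2 and 3. After 10 days it was 321, 423 and 103. All 6 of these muscles were above every control, but the muscles of a group differed from each other by 7.04 times at 2 days and 4.10 times at 10 days. The values at 20 days were 40.5, 57.3 and 40.0, and those at 30 days were 44.8, 56.1 and 60.1. These late values no longer overlapped the early ones and still lay above the highest control, the 30-day right muscle of replicate 3 at 30.3. Of all genes tested, all 3 trained muscles were above all 12 controls for 8.57%, 10.0%, 8.23% and 7.48% in order of time. The log2 differences from the controls in that order were 6.92, 4.63, 2.25 and 2.47 (SE 0.51, 3 against 12 muscles), and the ratio of the means was 149 at 2 days and 5.12 at 30 days. Each trained muscle exceeded the right muscle of its own rat, in 12 of 12 rats. The smallest ratio, taken on value + 1, was 110 at 2 days and 1.95 at 30 days. With the 3 right muscles of the same time point as controls, the log2 difference at 30 days was 1.63 ± 0.61 and was no longer past the threshold used below. With each trained muscle set against the right muscle of its own rat, it was 1.63 ± 0.38 and stayed past that threshold. Single muscles moved the difference: at 2 days it was 7.74 without replicate 1 and 6.34 without replicate 2, and at 10 days 5.24 without replicate 3.

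Ankrd2 was above the controls early and within their range later, apart from 1 muscle below it. The contralateral muscles held 8.64 to 22.1, with a median of 15.03. At 2 days the trained muscles held 57.9, 295 and 204, and at 10 days 58.7, 109 and 29.8, all above the controls. At 20 days they held 12.4, 20.7 and 14.6, and at 30 days 5.99, 16.7 and 13.9. The late muscles overlapped the controls, and replicate 1 at 30 days was below all of them. The log2 differences were 3.32, 1.94, 0.11 and -0.32 in order of time (SE 0.36), and the first was 4.01 without replicate 1. Trained exceeded contralateral in 10 of 12 rats.

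Ankrd23, the most abundant of the family in the resting muscle, stayed near its control level. The controls ran from 699 to 1253, with a median of 1060. The trained muscles held 1203, 1141 and 1168 at 2 days and 1180, 1531 and 1296 at 10 days. At 20 days they held 961, 1356 and 863, and at 30 days 1063, 820 and 772. Only 3 of 12 trained muscles lay above all controls, and the trained muscle was the higher in 7 of 12 rats. The log2 differences were 0.19, 0.38, 0.02 and -0.22 in order of time (SE 0.16).

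**Figure D1:**
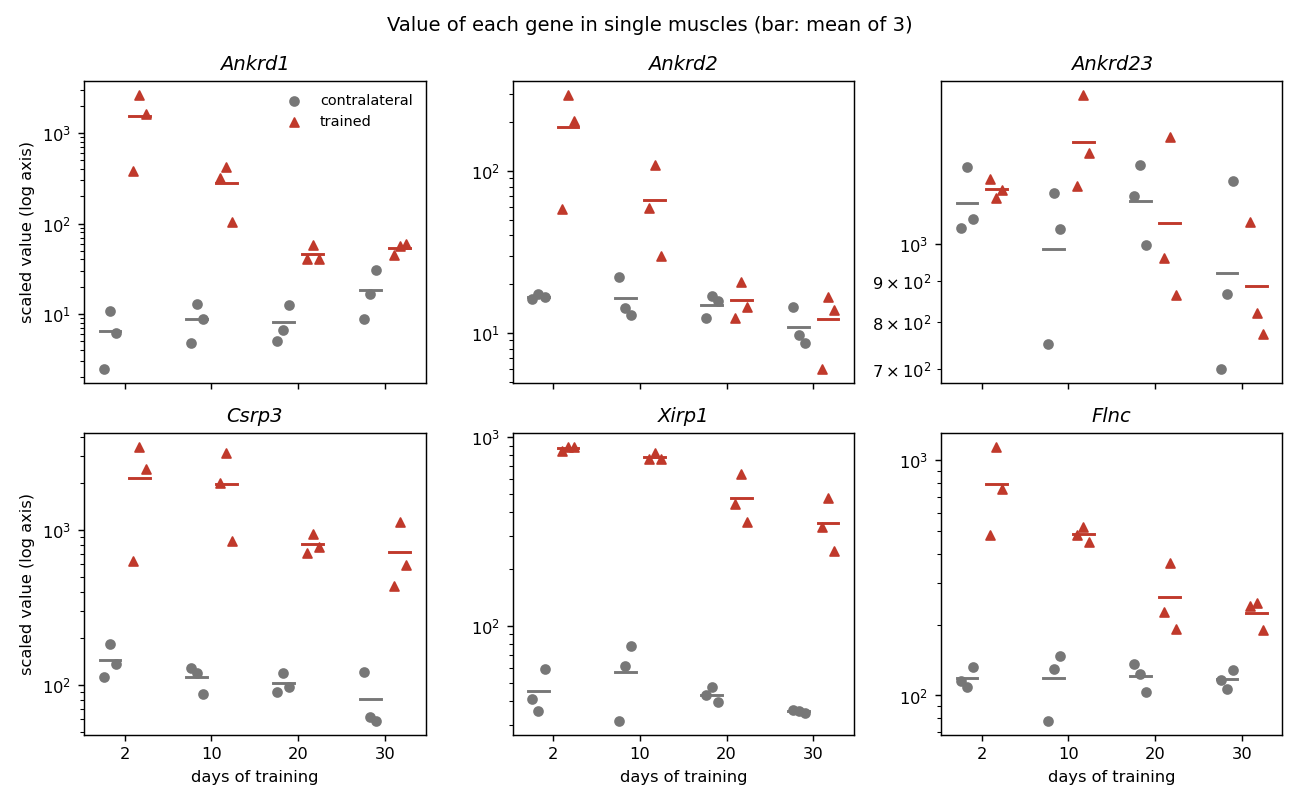
Value of each gene in every muscle, as the sample-scaled sum of its transcript values, on a log axis against days of training. Grey circles are contralateral and red triangles trained muscles in the order of replicates 1 to 3, and bars are means of 3. Trained muscles lie above all contralateral muscles throughout for Ankrd1, Csrp3, Xirp1 and Flnc, at 2 and 10 days for Ankrd2, and overlap them for Ankrd23, whose axis is narrow.

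With the values taken as scaled for length, the 3 ankyrin repeat genes were set against their own sum. The shares would differ if the values are not so scaled. In the contralateral muscles Ankrd23 made up 97.6% ± 0.64 (SD, n = 12) of that sum and Ankrd1 0.988% ± 0.64. In the trained muscles Ankrd1 made up 47.5% ± 21.8 (SD, n = 3) after 2 days, then 16.1% ± 7.69, 4.12% ± 0.21 and 5.80% ± 1.59 at the later times. In the single muscles at 2 days the Ankrd1 share was 23.1%, 54.5% and 65.0% from lowest to highest, against a highest control of 2.45%. The share of Ankrd2 was 1.45% ± 0.54 in the controls and 5.83% ± 2.00 at 2 days. The sum itself was 1065 ± 184 in the controls and 2920 ± 1236, 1684 ± 334, 1122 ± 275 and 951 ± 143 in the trained groups in order of time. The family's transcript level was thus nearly all Ankrd23 in the resting muscle, and the added level at 2 days was mostly Ankrd1.

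**Figure D2:**
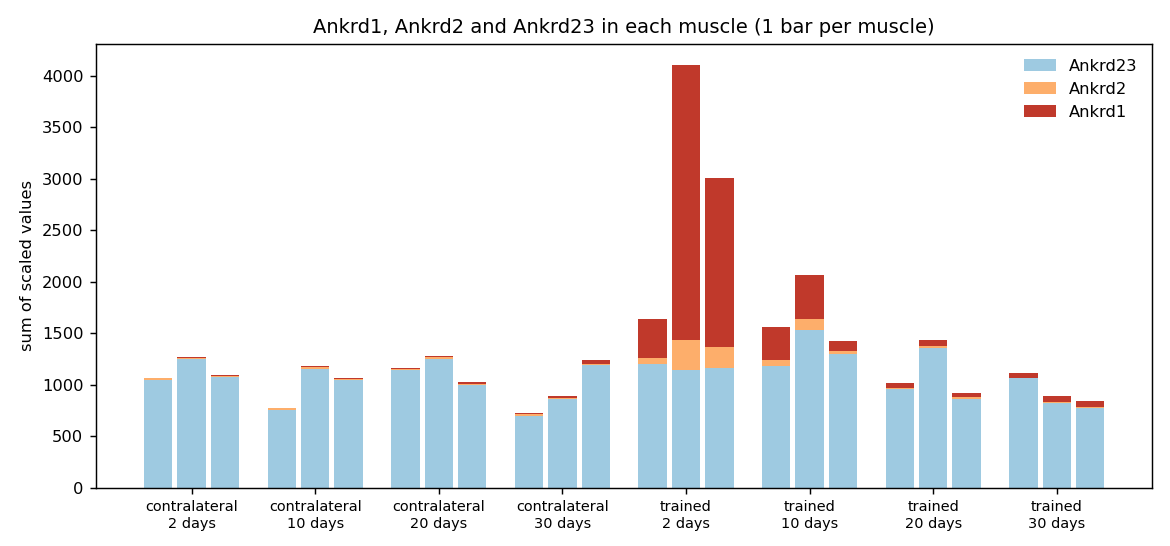
Sum of the values, taken as length-scaled, of Ankrd23 (blue), Ankrd2 (orange) and Ankrd1 (red) in each of 24 muscles, with 1 stacked bar per muscle in the order of replicates 1 to 3 and groups by limb and days of training. The blue part is of similar height throughout, and the red part is large in the 3 trained muscles at 2 days and visible in the 3 at 10 days.

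Csrp3 was about as high after 10 days as after 2 days. Its contralateral values ran from 58.5 to 183, with a median of 116. The trained values were 632, 3437 and 2454 at 2 days and 1995, 3134 and 848 at 10 days. They were 707, 935 and 774 at 20 days and 435, 1120 and 594 at 30 days. The lowest trained muscle was above the highest control at every time point, and the 2- and 10-day groups overlapped each other widely. The log2 differences were 4.04, 4.04, 2.92 and 2.65 in order of time (SE 0.39), and the first was 4.78 without replicate 1. Within rats the smallest ratio of trained to contralateral, taken on value + 1, was 3.55, at 30 days.

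The 2 Csrp3 transcripts kept their proportion. Csrp3-202 made up 14.1% ± 1.42 (SD, n = 12) of the gene's value in the contralateral muscles and between 13.6% and 13.9% on average in the 4 trained groups. In two-sided exact permutation tests of 3 against 12 muscles, the 4 p-values lay between 0.576 and 0.835, and the adjusted p was 0.835 for each. The mean share in the trained groups was lower by 0.19 to 0.52 percentage points than in the controls, whose own values ran from 11.8% to 16.7%.

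Xirp1 varied little between the trained muscles early on. The contralateral values ran from 31.3 to 77.8, with a median of 40.3. The trained values were 844, 885 and 889 at 2 days and 768, 824 and 766 at 10 days. They were 443, 636 and 355 at 20 days and 335, 474 and 250 at 30 days. At 2 days its highest trained muscle was 1.05 times its lowest, although replicate 1 was far below the others for Ankrd1, Ankrd2 and Csrp3 in the same libraries. The log2 difference was 4.30 ± 0.22, 4.15, 3.39 and 2.94 in order of time. The trained muscle was the higher in 12 of 12 rats, with a smallest ratio, taken on value + 1, of 7.03.

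Flnc, which binds Xin, had a smaller difference. The contralateral values ran from 77.8 to 148, with a median of 120. The trained values were 480, 1143 and 756 at 2 days and 480, 522 and 451 at 10 days. They were 227, 365 and 192 at 20 days and 239, 246 and 190 at 30 days. All 12 trained muscles were above all controls, and the lowest of them, at 190, stood closest to the highest control, at 148. The log2 difference was 2.66 ± 0.19, 2.03, 1.09 and 0.93 in order of time. In the gene-level table, whose samples are scaled differently, the last was 0.46 and no longer past the threshold used below.

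**Figure D3:**
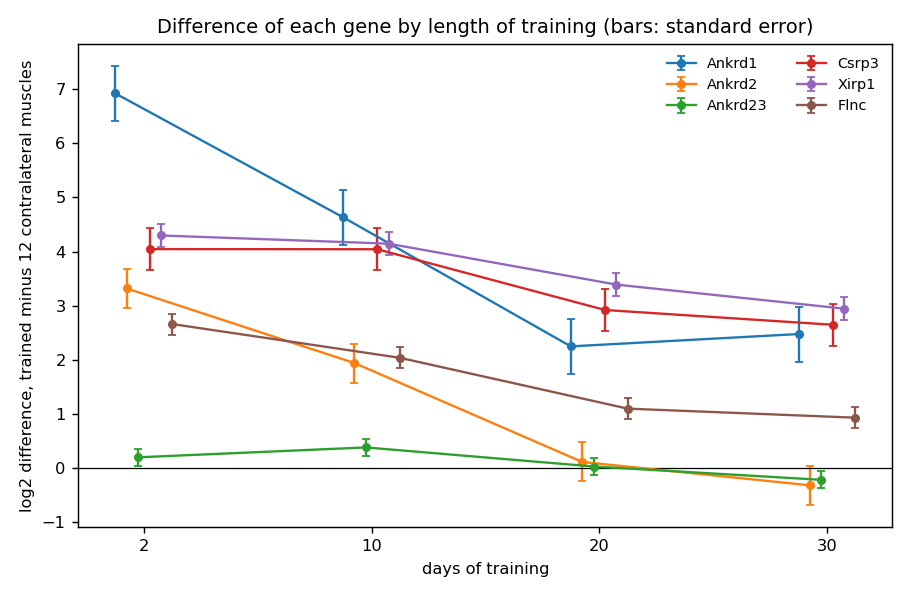
Log2 difference of each gene between 3 trained muscles and the 12 contralateral muscles (vertical axis, bars are standard errors) against days of training. Ankrd1 starts highest at 6.92 and drops to 2.25 by 20 days, Xirp1 and Csrp3 decline from above 4 to between 2.6 and 3, Flnc declines from 2.66 to 0.93, Ankrd2 ends below 0, and Ankrd23 stays within 0.4 of 0.

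By limma with Benjamini-Hochberg adjustment at a threshold of 0.05, 5, 5, 4 and 4 of the 6 members were past the threshold as higher at 2, 10, 20 and 30 days, and none as lower. Of all genes tested, 15.4%, 15.6%, 11.7% and 11.1% were called higher at those times and 13.5%, 13.3%, 9.64% and 9.46% lower. The members were chosen with this contrast in view, so their count says nothing beyond that choice. The rule for choosing them set no threshold: Ankrd2 at 20 and 30 days and Ankrd23 at every time stood outside the calls, and Flnc at 30 days, with 0.93 ± 0.19, was the smallest difference inside them. At 30 days Ankrd1 left the calls with time-matched controls, at 1.63, but not with the animal as a block. Flnc left them in the gene-level table, at 0.46. All 12 trained muscles exceeded all 12 contralateral muscles for 4 members, against 2.93% of all genes tested.

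With the values taken as scaled for length, the order of the levels within a muscle changed with training. In the contralateral muscles Ankrd23 was highest, with no overlap with the next gene, followed by Flnc and Csrp3, whose ranges overlapped, Xirp1, Ankrd2 and Ankrd1. Flnc exceeded Csrp3 in 8 of 12 and Ankrd2 exceeded Ankrd1 in 10 of 12 of these muscles. At 2 days Csrp3 had the highest mean, 2174, ahead of Ankrd1 at 1564 and Ankrd23 at 1170, and the ranges of neighbours in this order overlapped. At 20 and 30 days Ankrd23 was again the highest on average, with Csrp3 next and overlapping it, and Ankrd2 was the lowest.

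The difference between trained groups equals the difference between 2 of the values given above, since all groups share the same controls. The members were chosen with those values known, so these contrasts are a description too and carry no test. From 2 to 30 days of training, the log2 difference was -4.45 (SE 0.64) for Ankrd1, -3.64 (SE 0.46) for Ankrd2, -1.73 (SE 0.25) for Flnc and -1.35 (SE 0.27) for Xirp1. For Csrp3 it was -1.40 (SE 0.50) and for Ankrd23 -0.42 (SE 0.20). No trained muscle at 30 days reached the lowest one at 2 days for 5 of the genes, and for Csrp3 the muscles of both time points overlapped. The share of all genes separated in this way was not counted, so this says nothing particular to the members. Of all 11196 genes tested, 1677 passed limma at the threshold for 30 against 2 days. With the animal as a block, so that each trained muscle is set against its own right muscle, the differences were -5.85 for Ankrd1, -3.03 for Ankrd2, -1.72 for Flnc, -1.04 for Xirp1, -0.52 for Csrp3 and -0.10 for Ankrd23.

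Between successive time points, Ankrd1 differed by -2.29 from 2 to 10 days, by -2.39 from 10 to 20 days and by 0.23 from 20 to 30 days (SE 0.64). For Ankrd2 the steps were -1.38, -1.83 and -0.43 (SE 0.46), so that for both genes the last step was the smallest. For Csrp3 they were -0.0026, -1.12 and -0.27 (SE 0.50), with the largest step from 10 to 20 days. For Xirp1 they were -0.15, -0.76 and -0.44 (SE 0.27), and for Flnc -0.62, -0.94 and -0.17 (SE 0.25), again with the largest step from 10 to 20 days. Ankrd23 moved by 0.18, -0.35 and -0.25 (SE 0.20). With the animal as a block, the step from 20 to 30 days was -0.81 for Ankrd1, 0.011 for Ankrd2, 0.14 for Csrp3 and 0.080 for Ankrd23. The step of Csrp3 from 2 to 10 days was then 0.34. Each of these steps thus had the other sign when each muscle was set against its own right muscle.

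The contralateral muscles of the 4 time points were compared with a limma F test over these 12 muscles. No member passed, with adjusted p-values between 0.443 and 0.994, against 0.0666% of 10517 genes tested. Csrp3 alone had an unadjusted p under 0.05 (0.0436), with means of 144 ± 36.1 (SD, n = 3), 112 ± 22.04, 102 ± 15.03 and 80.9 ± 35.5 at 2, 10, 20 and 30 days. Ankrd1 in the right muscles averaged 6.45 ± 4.14 at 2 days and 18.5 ± 10.96 at 30 days, and its unadjusted p was 0.0874. Of all genes, 7 passed after adjustment and 1153 at an unadjusted p under 0.05.

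The genes most like each member were named by the Pearson correlation of log2(value + 1) over the 24 muscles, among 3835 genes with a mean of at least 10. Trained and contralateral muscles form separate clusters and come from the same animals, so r is a measure of likeness and carries no test. Ankrd1 was most like Tubb6 (r = 0.970), a beta-tubulin, Pdlim3 (0.970) and Klhl41 (0.967). Ankrd2 was most like Myl12a (0.957), a regulatory light chain of nonmuscle myosin, Rnh1 (0.935) and Tmem38b (0.934). The likest genes of Csrp3 were Hspb7 (0.984), a small heat shock protein of muscle, Mustn1 (0.974) and Fhl1 (0.970). Those of Xirp1 were Otud1 (0.982), a deubiquitinase, and the early response genes Egr1 (0.979) and Atf3 (0.976). Those of Flnc were Klhl40 (0.971), which stabilises thin filament proteins, Lmna (0.970) and Usp28 (0.964). For Ankrd23 the highest values were lower, with Fhod1 (0.862), a formin, Pbxip1 (0.786) and Klhl30 (0.773).

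Among other LIM-domain proteins of muscle and the cytoskeleton, more genes rose than fell. This list and the next ones were chosen with earlier results of these data known. Their counts and adjusted p-values are therefore a description and give no independent support. The shares of all genes called higher (15.4%, 15.6%, 11.7% and 11.1% in order of time) and lower (13.5%, 13.3%, 9.64% and 9.46%) are the background for this and the next lists. Of 19 tested, 10, 13, 9 and 6 were higher at 2, 10, 20 and 30 days, and 0, 0, 2 and 1 lower, with median log2 differences of 0.43, 0.67, 0.54 and 0.40 against -0.01, -0.03, -0.03 and -0.01 over all genes. Fhl1, the main LIM-only protein of skeletal muscle, rose from 800 ± 92.8 (SD, n = 12) in the controls to 4538 ± 671 (n = 3) at 2 days (log2 difference 2.501 ± 0.14, limma adjusted p = 2.45e-12) and stood at 2815 ± 683 at 30 days (1.80). Lmcd1 was the largest at 2 days at 2.58 ± 0.30, and at 30 days, with 0.69, it did not pass. Pdlim3, an actinin-binding PDZ and LIM protein, went from 2.12 at 2 days to 0.37 at 30 days, where it did not pass either. Nrap, which links thin filaments to the membrane at the myotendinous junction, rose by 1.11 at 2 days. Ldb3, the abundant Z-disc protein Cypher, differed by 0.16, 0.30, 0.31 and 0.04 and passed at no time.

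Among ankyrin repeat proteins outside the family, more genes fell than rose. Of 17 tested, 8, 10, 4 and 6 were lower and 1 was higher at each time, with median differences of -0.45, -0.30, -0.29 and -0.25. With the animal as a block, 5 rather than 10 were lower at 10 days. The higher one was Asb5, whose value went from 24.7 ± 4.02 (SD, n = 12) to 138 ± 41.1 (n = 3) at 2 days (2.40 ± 0.17, limma adjusted p = 2.15e-10) and was still 62.0 ± 14.9 at 30 days. Asb2, a substrate receptor for ubiquitin ligases that targets filamins in cell systems, fell by 0.93 at 2 days (SE 0.16, limma adjusted p = 9.08e-05) and by 0.62 at 30 days. Asb18 had the largest fall at 2 days, by 1.17, from a low level of 2.90. Ankrd40 fell by 0.47 and Asb8 by 0.46 at 2 days, and at 30 days neither passed.

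Partners of Xin and filamin rose in 10, 9, 7 and 7 of 17 tested genes and fell in 1, 0, 0 and 0, with median differences of 0.42, 0.69, 0.23 and 0.39. With the animal as a block, 5 rather than 10 were higher at 2 days. Hspb7 rose by 4.09 ± 0.25 at 2 days and was still 2.45 higher at 30 days, from a control mean of 113. Hspb8, which works with Bag3 to remove damaged filamin, rose by 1.77 ± 0.18 at 2 days and had a difference of 0.39 at 30 days that did not pass. Xirp2, the larger relative of Xirp1, rose by 1.36 at 2 days and 1.46 at 10 days, then differed by 0.27 and 0.36 without passing. Synpo2 did not pass at any time, with differences of -0.23, -0.15, -0.33 and 0.07.

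Of 17 tested partners of titin and the Z-disc, 7, 6, 4 and 4 were higher and 3, 2, 5 and 2 lower. The lower shares at 2, 10 and 30 days, 17.6%, 11.8% and 11.8%, were near the 13.5%, 13.3% and 9.46% of all genes called lower. Ttn and Tcap were not analysed here. Cryab, the small heat shock protein that protects titin and desmin, rose by 2.98 ± 0.22 at 2 days and stayed 1.22 higher at 30 days. Trim63 (MuRF1), a ubiquitin ligase at titin's M-band, rose by 1.13 at 2 days, and Des, the intermediate filament protein desmin, by 0.90. Actn3, the actinin of fast fibres, fell by 0.74 at 2 days and fell by 2.18 at 30 days (SE 0.19, limma adjusted p = 1.57e-08), from 3569 ± 305 (SD, n = 12) to 850 ± 370 (n = 3). Myoz1, a Z-disc protein of fast fibres, fell by 0.34 at 2 days and by 0.38 at 10 days and did not pass later. The slow fibre markers, 9 genes, summed to between 1395 and 2842 in the contralateral and between 763 and 2311 in the trained muscles, and 4, 1, 0 and 0 of them were lower and none higher.

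Of the YAP and TEAD list, 15 genes tested, 2, 4, 2 and 1 were higher and 0, 0, 1 and 1 lower. The higher shares at 2, 20 and 30 days, 13.3%, 13.3% and 6.67%, were near or under the 15.4%, 11.7% and 11.1% of all genes. With the animal as a block, 4 rather than 2 were higher at 2 days and 0 rather than 1 at 30 days. The highest changes were in the secreted matrix-cell proteins Ccn1, which rose by 2.22 ± 0.51 at 2 days and had a difference of -0.80 at 30 days that did not pass, and Ccn2, which rose by 1.62 at 2 days and by 1.03 at 30 days. Vgll2, a muscle cofactor of TEAD, rose by 0.42 at 10 days and by 0.41 at 20 days. Amotl1, which holds YAP out of the nucleus, fell by 1.31 at 20 days and fell by 1.01 at 30 days, and Amot rose at 10 days, by 0.39.

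Of the SRF and MRTF list, 14 genes tested, 10, 7, 5 and 5 were higher and 0, 1, 0 and 0 lower. With the animal as a block the counts higher were 6, 6, 5 and 6. Egr1, an early response transcription factor, rose by 4.76 ± 0.24 at 2 days and was 3.25 higher at 30 days, and Fos went from 4.30 to 2.49. Lmod2, which elongates thin filaments, rose by 2.56 at 2 days and 1.69 at 30 days, and Abra (STARS), an actin-binding activator of SRF, by 1.40 and 0.76. Lmod3 fell by 0.36 at 10 days and passed at no other time, and Acta1, skeletal actin, rose at 10 days, by 0.41.

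**Figure D4:**
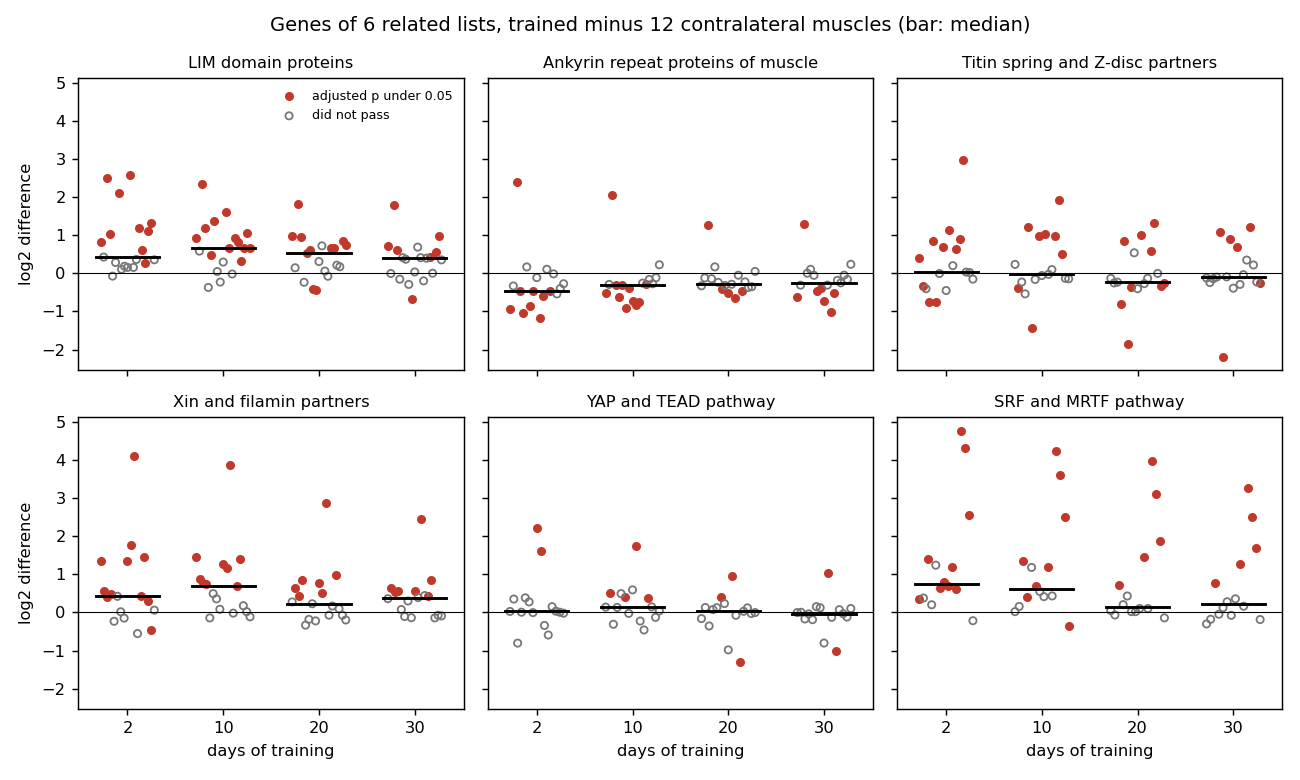
Log2 difference between 3 trained and 12 contralateral muscles for each tested gene of 6 lists (LIM domain proteins, ankyrin repeat proteins, titin and Z-disc partners, Xin and filamin partners, YAP and TEAD pathway, SRF and MRTF pathway) by days of training. Red points passed limma at an adjusted p under 0.05, open points did not, and bars are medians, which are positive for the LIM list and negative for the ankyrin repeat list at all 4 times.

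These list counts, taken in both directions together, changed when a single muscle was left out. The count over all genes changed as well. It went from 3235 to 1492 without trained replicate 2 at 2 days, and from 2304 to 1822 without replicate 1 at 30 days. Without trained replicate 2 at 2 days, the counts at 2 days went from 10 to 6 (titin and Z-disc), 11 to 7 (Xin and filamin), 2 to 1 (YAP and TEAD) and 10 to 5 (SRF and MRTF). Without replicate 3 at 10 days the ankyrin repeat count at that time went from 11 to 7, and without replicate 1 or replicate 2 the YAP and TEAD count went from 4 to 2. At 20 days the ankyrin repeat count of 5 was 2 without replicate 1 and 3 without replicate 3, and without replicate 2 the Xin and filamin count went from 7 to 4 and the YAP and TEAD count from 3 to 1. At 30 days, without replicate 1, the LIM count went from 7 to 3 and the Xin and filamin count from 7 to 4, and the YAP and TEAD count of 2 was 1 without any of the 3 muscles.

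These directions depend in part on the scaling of the samples at 30 days. On the values as deposited, the median over all genes was 0.07 at 2 days and -0.18 at 30 days, and 20.0% of the calls at 30 days were higher, against 54.0% with the median-of-ratios factors. At 2 and 10 days the higher share was 74.5% and 75.5% on the values as deposited, against 53.4% and 53.9%. The member differences at 30 days were then 2.25 for Ankrd1, 2.42 for Csrp3, 2.72 for Xirp1, 0.70 for Flnc, -0.53 for Ankrd2 and -0.45 for Ankrd23, and no member's side of the threshold changed. The LIM list had 4 genes higher and 2 lower at 30 days on those values, and the ankyrin repeat list 1 higher and 10 lower. The titin and Z-disc list had 3 higher and 8 lower, with a median of -0.32 in place of -0.10, and its median at 10 days changed sign, from -0.03 to 0.09.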

How the data were processed

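RNA of 24 tibialis anterior muscles, 12 trained left and 12 contralateral right ones, was enriched for poly-A, made into directional libraries and sequenced in paired ends. The authors trimmed reads below a Phred score of 25, used Partek Flow to align them with STAR to Rnor_6.0 (rn6), and quantified transcripts of Ensembl release 99. They deposited values for 20027 transcripts, which add up to about 634431 in every sample and are TPM-type, although the methods name a median-of-ratios normalization. The deposited gene-level table holds values in units of signal for 4635 genes, and for the members it differed from the transcript sums by at most 0.164% once a constant per gene and per sample was taken out. A table of the authors' own comparisons (fold changes, p-values and means) was not used. Read counts per transcript were not used here, so the depth behind each value could not be read and no count model was run. The study states a lower bound for the reads per library, which these values do not carry to single genes.

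Transcripts were summed per gene symbol (62 symbols cover more than 1 gene identifier) and divided by a median-of-ratios factor from the 16230 transcripts above 0 in all samples. The genes that reached 1 in 3 or more samples were fitted on log2(value + 1) with limma 3.58.1 in R 4.3.3, in 5 groups, with Benjamini-Hochberg adjustment at 0.05. The fit was tested on simulated data, and 0 of 276 pairs of libraries held the same values. Members and gene lists were chosen with earlier results of these data known. The text names all members, the 4 genes with the highest mean and the 2 largest at 2 days of each list, and the 3 genes most like each member. The labels give left and right muscles of an animal the same day and replicate number. Residuals of the muscles of 1 animal correlated with a median r of 0.174 (12 pairs, 0.0277 to 0.343). Those of different animals at 1 time point correlated with -0.100 (24 pairs) and those of different time points with 0.0083 (108 pairs). Residuals were centred per group of 3, which ties the second value to the first, so it is no independent baseline. The alternatives were the values as deposited, a pseudocount of 0.1, no filter, the animal as a block, time-matched controls, single transcripts, an intensity trend and each replicate left out, and, chosen after seeing the data, the omission of either of 2 contralateral libraries at 30 days and the gene-level table. Python 3.11.15, pandas 2.3.3, numpy 2.4.6, scipy 1.17.1 and matplotlib 3.10.9 were used.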

Additional observations from a re-analysis of the deposited data

How the results depend on the processing

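The animal as replicate block moved the count of genes past the threshold from 2304 to 1377 (trained against contralateral at 30 days), from 216 to 7 (10 against 2 days of training), from 19 to 1 (20 against 10), from 4 to 0 (30 against 20) and from 1677 to 314 (30 against 2). Time-matched controls moved those counts to 1121, 4, 0, 0 and 289, and the counts at 10 and 20 days to 2007 and 1589. The values as deposited gave 43, 9 and 3294 for 20 against 10, 30 against 20 and 30 against 2 days, a pseudocount of 0.1 gave 1 and 0 for 20 against 10 and 30 against 20 days, and single transcripts gave 3 for 20 against 10 days. With no filter 3 genes in place of 7 differed among the contralateral groups. The cause was not tested. With 1 replicate left out, the counts for trained against contralateral were 1492 (without replicate 2) to 3496 (without replicate 1) at 2 days, 2130 to 2693 at 10 days, 1730 to 1966 at 20 days and 1469 to 1822 at 30 days. Between trained groups they were 66 to 484 (without 2-day replicate 1) for 10 against 2 days, 2 to 93 (without 10-day replicate 3) for 20 against 10, 0 to 9 for 30 against 20 and 715 (without 2-day replicate 2) to 2123 for 30 against 2, and among the contralateral groups 0 to 12. Leaving out a trained replicate changed no direction of a member's difference that had passed. The omission of either of 2 contralateral libraries at 30 days, an intensity trend, a pseudocount of 0.1, no filter and single transcripts left each of the 24 member differences on its side of the threshold. In the gene-level table, whose sample scaling differs, Flnc at 30 days was 0.46 higher and did not pass, and Ankrd23 was -0.68 and passed. With time-matched controls Ankrd1 at 30 days did not pass (1.63, SE 0.61), and with the animal as a block it passed (1.63, SE 0.38). No called result changed direction. Depth could not be read from these values.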

Other observations

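Ankrd2 and Csrp3 are known from slow fibres, so the members' levels in the 12 contralateral muscles were set against the summed level of 9 slow fibre markers, a comparison chosen after the data were seen. Across these muscles Pearson's r was 0.069 for Ankrd2 (permutation p = 0.833, Spearman's rho 0.063, permutation p = 0.853) and 0.14 for Csrp3 (permutation p = 0.655, rho 0.091, permutation p = 0.783). Without the 2 muscles farthest from the median marker sum, r was 0.030 and -0.023. The 4 other members had r between -0.39 (Ankrd23) and -0.12 (Ankrd1), and over the 6 relations the smallest adjusted p was 0.676. With both measures centred per time point and muscles exchanged within time points (two-sided, also chosen after the data were seen), r was 0.74 for Csrp3 (exact permutation p = 0.0941), 0.59 for Ankrd2 (exact permutation p = 0.188) and between -0.62 (Ankrd23) and -0.20 (Xirp1) for the others. The smallest adjusted p over these 6 was 0.377. Without the 3 muscles at 30 days, r over the other 9 was 0.37 for Csrp3 and 0.14 for Ankrd2, so the higher values rest in part on those muscles.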
